A study of Oreochromis niloticus with 18 samples.

Results

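The cerebellum of juvenile tilapia (Oreochromis niloticus) was compared between fish kept in water with 25 nM T2 and untreated controls. All RNA-seq libraries labelled as cerebellum that belong to these groups were taken, which gave 4 of the 18 libraries of the series, 2 per group. The T2 fish were exposed by immersion for 12 h, the fish of both groups were 4 months old by the labels, and each library pooled the cerebellum of 4 fish. The sources used here do not say whether the pools of a group came from separate tanks, so p-values measure the spread between these pools. The remaining libraries hold cerebellum after 25 nM T3 for 12 h, and the thalamus with the pituitary, and the liver, under the same conditions.

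T3 (3,3',5-triiodothyronine) is the thyroid hormone that binds nuclear thyroid hormone receptors, and T2 (3,5-diiodothyronine) lacks the iodine of its outer ring and also binds a receptor of bony fish. The receptors sit on DNA beside their target genes, where the hormone exchanges corepressors such as NCOR1 for coactivators such as EP300. In the vertebrate cerebellum, thyroid hormone is known for its part in the division, migration and maturation of granule cells and in the growth of Purkinje cell dendrites. The fish cerebellum keeps dividing progenitor cells into adult life. Gene roles given below are those known in mammals.

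The libraries held between 1568851 (T2 1) and 5683139 (Control 1) effective counts. Control 2 held 2408635 and T2 2 held 5165818, so each group had a deep and a shallow library, and 1 count stood for between 0.184 and 0.615 CPM, the unit of counts scaled to a common library size. Levels are CPM adjusted by TMM over the 12 brain libraries, which gives the share of a library that a transcript took. Levels of different transcripts were not compared, because transcript lengths were not used. Symbols were known for 1377 of the 15271 transcripts with enough counts to test, all through the study's list of its own gene clusters. That list has a cerebellum section built from these libraries, so the direction of a transcript named there is not independent evidence. Transcripts named elsewhere were not placed in that section, so a lack of small p-values among them is not independent evidence either.

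The tissue label was checked against members of the cerebellum list, which did not all separate the 2 brain regions. HAPLN4 stood at 10.3 and 8.61 CPM in the cerebellum controls, against 20.4 and 14.9 CPM in the thalamus-pituitary controls. SLC1A3 stood at 50.7 and 42.6 CPM, against 57.3 and 47.2 CPM there. FAT2 and GRID2IP did separate them. FAT2, a protocadherin of granule cells, stood at 2239 and 2266 CPM in the controls and at 1732 and 2186 CPM with T2, against 2.24 to 4.30 CPM in the thalamus-pituitary controls. GRID2IP, a scaffold protein of Purkinje cell synapses, stood at 229 to 303 CPM in the 4 libraries and at no more than 2.65 CPM in those controls. The thalamus-pituitary library T2 1 held 87.4 CPM of FAT2, against 2.64 CPM in T2 2.

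With edgeR's quasi-likelihood test, 0 of 15271 transcripts passed an adjusted p of 0.05 (0% called). At an unadjusted p under 0.05 there were 758 transcripts (4.96%), of which 418 (2.74%) were lower and 340 (2.23%) higher with T2. The median log2 fold change over all tested transcripts was 0.00. Other tests did make calls. Without a filter on low counts, edgeR's exact test called 36 transcripts (0.16%), 28 lower (0.125%) and 8 higher (0.0356%) with T2. DESeq2 called 17 (0.101%), 13 lower (0.0774%) and 4 higher (0.0238%), and 15 of these were among the 36. The quasi-likelihood test called 156 transcripts (0.695%), 81 lower (0.361%) and 75 higher (0.334%), when every transcript with at least 1 count entered. With minimums of 2 and 3 summed counts, which were added after seeing the data, it called 6 and 0. Of the 36 transcripts of the exact test, 32 had a symbol. These calls are used below to choose what is described, and every adjusted p without a named tool is from the quasi-likelihood test.

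**Figure D1:**
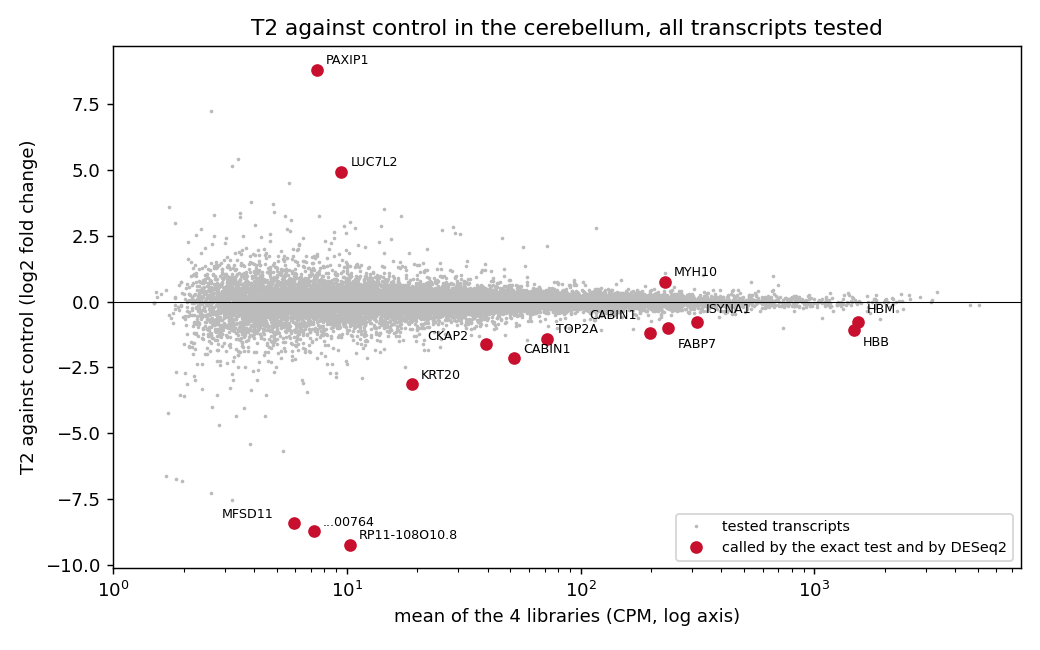
Log2 fold change of T2 against control (y axis) and mean CPM of the 4 cerebellum libraries (x axis, log scale) for each tested transcript (grey). The 15 transcripts called by both the exact test and DESeq2 are in red. MFSD11, ENSONIT00000000764 and RP11-108O10.8 are at 0 counts in both T2 libraries and PAXIP1 in both controls, so their fitted values are not sizes of change.

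Of the 19 tested transcripts of the mitosis and chromosome segregation list, 8 were lower with T2 at an unadjusted p under 0.05. Of all tested transcripts 2.74% were lower at that limit, and 0 of the 19 passed the adjusted threshold. Every list member has a symbol, and of the 1377 tested transcripts with a symbol 71 were lower and 48 higher at that limit. TOP2A, the topoisomerase that untangles chromosomes before they separate, stood at 101 and 107 CPM in the controls and at 36.9 and 40.8 CPM with T2. Its log2 fold change was -1.41 (SE 0.14, adjusted p = 0.363), and the exact test gave an adjusted p of 3.46e-07. CKAP2, a protein of the mitotic spindle, stood at 54.6 and 63.6 CPM in the controls and at 18.4 and 19.98 CPM with T2, a log2 fold change of -1.60 (SE 0.19, adjusted p = 0.51). For each of these genes the difference between the groups was several times the gap between the libraries of a group. Both genes were named for a small p with both T2 libraries below both controls. That choice favours such spacing, which is therefore not separate evidence. In bulk tissue, fewer cells of a type and less RNA per cell cannot be told apart.

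The condensin subunits SMC4 and SMC2, which compact chromosomes, had the same order. SMC4 stood at 62.0 and 53.3 CPM in the controls and at 27.1 and 28.5 CPM with T2. SMC2 stood at 45.6 and 48.4 CPM in the controls and at 22.1 and 24.1 CPM with T2. MKI67, which coats mitotic chromosomes and marks cycling cells, stood at 112 and 125 CPM in the controls and at 65.2 and 54.0 CPM with T2. CENPF, a kinetochore protein, stood at 102 and 125 CPM in the controls and at 64.0 and 52.2 CPM with T2. The log2 fold changes of SMC4, SMC2, MKI67 and CENPF lay between -1.05 and -0.98, and none passed the adjusted threshold. KIF4A, a chromosome-associated motor, and CIT, a kinase of the last step of division, were also below both controls in both T2 libraries.

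None of the 19 mitosis transcripts was higher at an unadjusted p under 0.05, against 2.23% of all tested transcripts. In 12 of them both T2 libraries lay below both controls and in 2 above, where 16.9% and 15.9% of all tested transcripts did so. Among tested transcripts with a symbol these shares were 19.2% and 17.3%. The median log2 fold change of the list was -0.88. All 8 belong to the cerebellum section of the study's clusters. Of the 11 members named elsewhere, 0 had an unadjusted p under 0.05 in either direction, 4 lay below and 2 above both controls, and the median was -0.04. The split itself favours this contrast. Of the 31 tested transcripts with a symbol that the exact test called, 1 was named outside the section. These 11 include RCC1, SKA2, CDC16 and both FZR1 transcripts, which act in spindle assembly and in the anaphase-promoting complex. RCC1 stood at 30.8 and 29.5 CPM in the controls and at 33.8 and 36.7 CPM with T2.

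In the DNA replication and repair list, 21 of the 22 tested transcripts were named outside the cerebellum section, though the list itself was chosen with earlier results of these data known. Of these 21, 12 lay below both controls in both T2 libraries (57.1%, against 17.2% of all tested transcripts named outside the section) and 0 above. Their median log2 fold change was -0.56, against 0.01 over those transcripts. At an unadjusted p under 0.05, 3 of them were lower and 0 higher, against 34 and 27 of the 1271 transcripts named outside the section. MCM4, a subunit of the helicase that opens DNA for copying, stood at 48.3 and 40.2 CPM in the controls and at 28.3 and 26.7 CPM with T2. MCM5, of the same helicase, stood at 46.7 and 43.5 CPM in the controls and at 30.1 and 26.3 CPM with T2. CDCA7, a cell cycle gene of chromatin remodelling, stood at 24.5 and 31.2 CPM in the controls and at 17.2 and 11.2 CPM with T2. The log2 fold changes were -0.69 for MCM4, -0.69 for MCM5 and -1.01 for CDCA7, each with an adjusted p of at least 0.935. MCM2, which is in the cerebellum section, stood at 57.9 and 62.3 CPM in the controls and at 36.3 and 33.0 CPM with T2. The members whose groups overlapped included the mismatch repair gene MSH6, the chromatin genes SSRP1 and RBBP4, and the replication genes GINS1 and POLA2. Leaving out T2 2 brought the count of members lower at an unadjusted p under 0.05 from 4 of 22 to 2 of 24, and leaving out T2 1 brought it to 7 of 24.

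**Figure D2:**
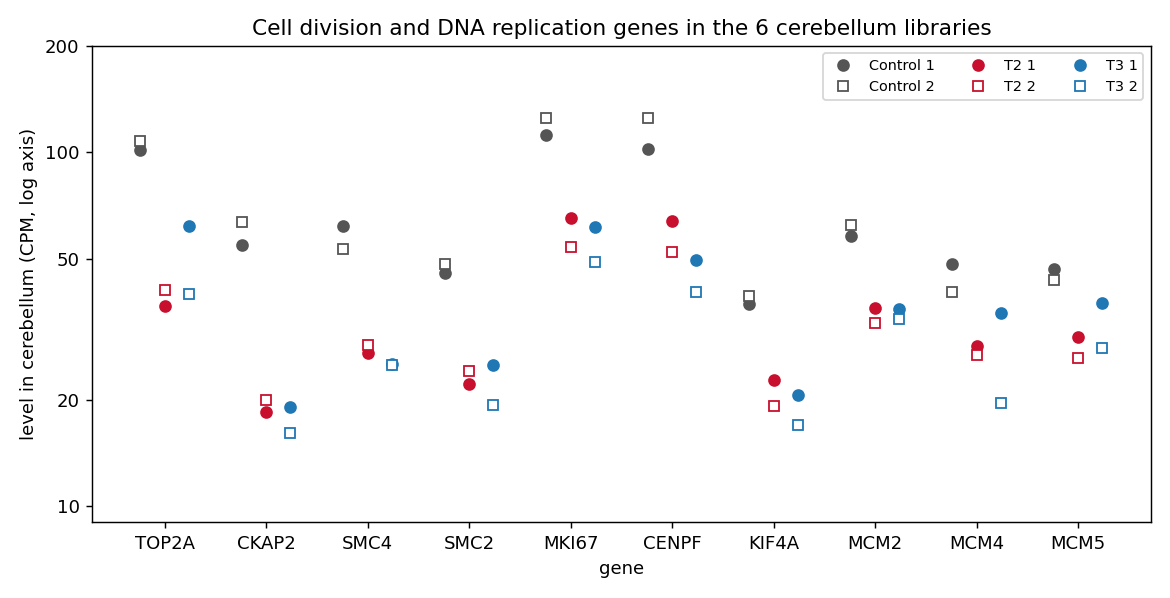
CPM (y axis, log scale) of 10 genes of cell division and DNA replication in the 6 cerebellum libraries. Filled circles are library 1 and open squares library 2 of the control (grey), T2 (red) and T3 (blue) groups. All 10 genes come from the list members whose T2 points both lie below both control points, so that order is not a result. Of the tested members, 12 of 19 mitosis and 13 of 22 replication transcripts had it. All genes shown except MCM4 and MCM5 are in the cerebellum section of the study's clusters.

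Genes of neural progenitors and glia were mixed. FABP7, the fatty acid-binding protein of radial glia, stood at 383 and 254 CPM in the controls and at 137 and 177 CPM with T2, a log2 fold change of -1.01 (SE 0.20, adjusted p = 0.917). The exact test called FABP7 with an adjusted p of 0.00819 and DESeq2 with 0.00755. NOTCH3, a receptor that keeps progenitors from differentiating, stood at 331 and 339 CPM in the controls and at 237 and 253 CPM with T2. CDH2 (N-cadherin, an adhesion protein) had the opposite order, at 20.5 and 45.5 CPM in the controls and at 105 and 59.5 CPM with T2. Of the 10 tested transcripts of the progenitor list, 2 were lower and 1 higher at an unadjusted p under 0.05 (2.74% and 2.23% of all tested), with a median log2 fold change of -0.19. Of 8 glial transcripts, 1 was lower (2.74% of all tested), CNP of myelin-forming cells. CNP stood at 69.2 and 89.0 CPM in the controls and 48.0 and 58.7 CPM with T2. It was no longer under that limit without Control 2 or without T2 1.

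Neuronal genes showed no common direction. Of the 28 tested transcripts of the neuron and synapse list, 2 were lower and 2 higher at an unadjusted p under 0.05 (2.74% and 2.23% of all tested), and the median log2 fold change was -0.00. Without T2 1 the lower members were 5 and without Control 1 they were 1. The lower ones were OPRD1, the delta opioid receptor, at 86.9 and 82.0 CPM in the controls and 39.4 and 58.9 CPM with T2, and STXBP6, a regulator of vesicle fusion. NKAIN2, which interacts with the sodium pump, was among the higher ones, at 3.14 and 4.92 CPM in the controls and 12.3 and 9.99 CPM with T2. The 5 transcripts of the cerebellum list held 0 under that limit.

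Immediate-early genes are switched on by neurons within minutes of activity. EGR1 stood at 709 and 1246 CPM in the controls and at 232 and 739 CPM with T2. FOS stood at 37.4 and 101 CPM in the controls and at 8.61 and 42.2 CPM with T2. For both genes T2 2 lay above Control 1, so the groups overlapped, and T2 1 was lowest. Of the 17 tested transcripts of the list, 1 was lower at an unadjusted p under 0.05 (2.74% of all tested), the stress gene GADD45B. This GADD45B transcript stood at 40.8 and 49.6 CPM in the controls and 28.9 and 27.1 CPM with T2. A second GADD45B transcript overlapped, at 6.64 and 7.79 CPM in the controls and 2.46 and 7.95 CPM with T2. Both together took 47.4 and 57.4 CPM in the controls and 31.4 and 35.1 CPM with T2. JUN, in contrast, was above both controls in both T2 libraries. The count of lower members was 6 without Control 1, 0 without Control 2 and 6 without T2 2.

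Of the 7 tested transcripts of the red blood cell list, 4 were lower with T2 and 0 higher at an unadjusted p under 0.05, against 2.74% and 2.23% of all tested transcripts, and 0 passed the adjusted threshold. The globin transcript HBB stood at 2236 and 1760 CPM in the controls and at 1018 and 871 CPM with T2, a log2 fold change of -1.07 (SE 0.16, adjusted p = 0.619). DESeq2 called HBB with an adjusted p of 1.18e-09 and the exact test with 6.62e-05. HBM, another globin, stood at 2177 and 1700 CPM in the controls and at 1136 and 1115 CPM with T2. ALAS2, the first enzyme of haem synthesis in red cells, stood at 119 and 92.3 CPM in the controls and at 50.4 and 55.9 CPM with T2. HBG2 had the same order. These 4 are all in the cerebellum section, and of the 3 members named elsewhere 0 had an unadjusted p under 0.05, with a median log2 fold change of -0.06. Those 3 were TFRC, above both controls in both T2 libraries, EPB41, below them, and ANK1, with overlapping groups. Because the section was built from these libraries, the contrast between members inside and outside it is not independent evidence. Reads may be divided between similar globin transcripts, so the values of single globins are uncertain. The 8 listed transcripts together took 8179 and 6357 CPM in the controls and 4452 and 4488 CPM with T2.

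Of the 5 tested transcripts of genes induced by interferon, the antiviral signal, 3 were lower and 0 higher at an unadjusted p under 0.05, against 2.74% and 2.23% of all tested, and 0 passed the adjusted threshold. HELZ2, a helicase, stood at 46.1 and 30.3 CPM in the controls and at 11.7 and 11.6 CPM with T2, a log2 fold change of -1.72 (SE 0.27, adjusted p = 0.619). IFI44 stood at 24.9 and 18.9 CPM in the controls and at 6.76 and 5.10 CPM with T2. ZNFX1, a sensor of viral RNA, stood at 44.1 and 20.1 CPM in the controls and at 8.61 and 11.8 CPM with T2. These 3 are all in the cerebellum section, and the list's median was -1.62. Of the 2 members named elsewhere, 0 had an unadjusted p under 0.05, and IFI35 lay below both controls and STAT2 overlapped. Here too the split by section favours such a contrast. Of the 7 tested transcripts of the immune cell list, 0 had an unadjusted p under 0.05, and all 14 listed transcripts together summed to 117 CPM in Control 1, 75.9 CPM in Control 2, 92.9 CPM in T2 1 and 82.8 CPM in T2 2.

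Markers of tissues that a dissection could carry along were listed too. KRT20, a keratin of epithelium, stood at 36.9 and 31.6 CPM in the controls and at 3.07 and 4.28 CPM with T2, a log2 fold change of -3.15 (SE 0.28, adjusted p = 0.337), the smallest p of the comparison. KRT6B, another keratin, stood at 25.3 and 16.4 CPM in the controls and at 1.23 and 3.67 CPM with T2. These keratins varied widely among other libraries. With T3, KRT20 took 8.98 and 142 CPM of the cerebellum libraries, and in the thalamus-pituitary controls 105 and 2.04 CPM. The other 3 tested keratin and epithelial transcripts had no unadjusted p under 0.05, and the 6 listed transcripts summed to 145 and 110 CPM in the controls and 92.2 and 79.5 CPM with T2.

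Of 8 connective tissue and cartilage transcripts, 2 were lower at an unadjusted p under 0.05 (2.74% of all tested), the cartilage and perineuronal net protein ACAN and the matrix protein FN1, and the list summed to 315 and 193 CPM in the controls and 217 and 218 CPM with T2. That count was 5 without Control 2 and 1 without Control 1 or T2 2. Of 5 exocrine pancreas transcripts 0 were lower and 1 was higher at an unadjusted p under 0.05 (2.74% and 2.23% of all tested). The list summed to 72.1 and 82.0 CPM in the controls and 98.4 and 103 CPM with T2. The digestive proteases CTRB2 and PRSS2 of that list lay below both controls in both T2 libraries. None of the 5 muscle and 6 liver transcripts had an unadjusted p under 0.05. The part of blood or of other carried tissue in the remaining results was not tested.

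CABIN1, an inhibitor of calcineurin signalling, was lower in both of its transcripts. ENSONIT00000013891 stood at 249 and 305 CPM in the controls and at 103 and 136 CPM with T2, and ENSONIT00000013892 at 70.5 and 97.6 CPM in the controls and at 23.4 and 16.1 CPM with T2. Summed, so that the division of reads between them has no part, CABIN1 took 320 and 403 CPM in the controls and 127 and 152 CPM with T2. The log2 fold changes were -1.19 (SE 0.17) and -2.14 (SE 0.29), both with an adjusted p of 0.619, and the exact test and DESeq2 called both transcripts.

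HIST1H1T, a linker histone, stood at 48.3 and 48.0 CPM in the controls and at 17.8 and 21.6 CPM with T2 (log2 fold change -1.26, SE 0.18, adjusted p = 0.619). TNKS, a tankyrase that modifies telomere and Wnt pathway proteins, stood at 47.6 and 57.8 CPM in the controls and at 19.1 and 22.4 CPM with T2. ISYNA1, which makes inositol, stood at 373 and 415 CPM in the controls and at 249 and 216 CPM with T2. KIAA1324L, a membrane protein, was at 57.4 CPM in Control 2 and at 113 CPM in Control 1, against 38.1 and 26.9 CPM with T2. KIAA1324L was among the calls of the exact test.

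Fewer transcripts were called in the higher direction. MYH10, a non-muscle myosin of cell shape and migration, stood at 173 and 170 CPM in the controls and at 266 and 306 CPM with T2, a log2 fold change of 0.75 (SE 0.11, adjusted p = 0.619). A second MYH10 transcript is listed, and both together took 542 and 568 CPM in Control 1 and 2, against 830 and 767 CPM with T2. HMGB1, an abundant chromatin protein, stood at 582 and 512 CPM in the controls and at 851 and 842 CPM with T2. ZBTB16, a transcriptional repressor that responds to glucocorticoids, stood at 25.1 and 25.4 CPM in the controls and at 62.1 and 52.2 CPM with T2 (log2 fold change 1.18, SE 0.20). NPC1, which exports cholesterol from lysosomes, stood at 3.32 and 0.82 CPM in the controls and at 14.1 and 22.8 CPM with T2. Of the transcripts without a symbol, ENSONIT00000012296 stood at 4.06 and 4.10 CPM in the controls and at 19.1 and 17.3 CPM with T2. ENSONIT00000023469, ENSONIT00000000361 and ENSONIT00000002609 were higher by log2 fold changes of 0.73 to 1.20.

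The cholesterol list, which holds NPC1, was mixed. DHCR7, of the last step of cholesterol synthesis, stood at 31.2 and 29.1 CPM in the controls and at 16.0 and 18.8 CPM with T2. FDPS, of an early step, stood at 21.0 and 20.5 CPM in the controls and at 9.22 and 14.5 CPM with T2. MVK, also of synthesis, was above both controls in both T2 libraries. The list's 8 tested transcripts held 2 lower and 1 higher at an unadjusted p under 0.05 (2.74% and 2.23% of all tested), with a median of -0.09.

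The machinery of thyroid hormone action itself showed no difference that could be detected at this depth. Of its 8 tested transcripts 0 had an unadjusted p under 0.05, and the median log2 fold change was 0.09. NCOR1, the corepressor, stood at 170 and 139 CPM in the controls and at 162 and 186 CPM with T2. RXRB, the partner of the receptor on DNA, stood at 72.3 and 65.6 CPM in the controls and at 75.6 and 71.0 CPM with T2. EP300 was above both controls in both T2 libraries, at 273 and 277 CPM against 264 and 242 CPM.

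Energy and housekeeping lists differed little. Of 11 respiratory chain transcripts 2 were higher and 0 lower at an unadjusted p under 0.05 (2.23% and 2.74% of all tested). These were COX4I1 and NDUFB4, with log2 fold changes of 0.37 and 0.43 and a list median of 0.09. Of 22 ribosomal protein transcripts 0 passed that limit. In the circadian list the 1 of 6 was ARNTL2, a clock activator, at 33.4 and 27.9 CPM in the controls and 59.6 and 47.3 CPM with T2. In the stress and fasting list it was ZBTB16, as given above, 1 of 14. Both were higher with T2, as were 2.23% of all tested transcripts at that limit.

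**Figure D3:**
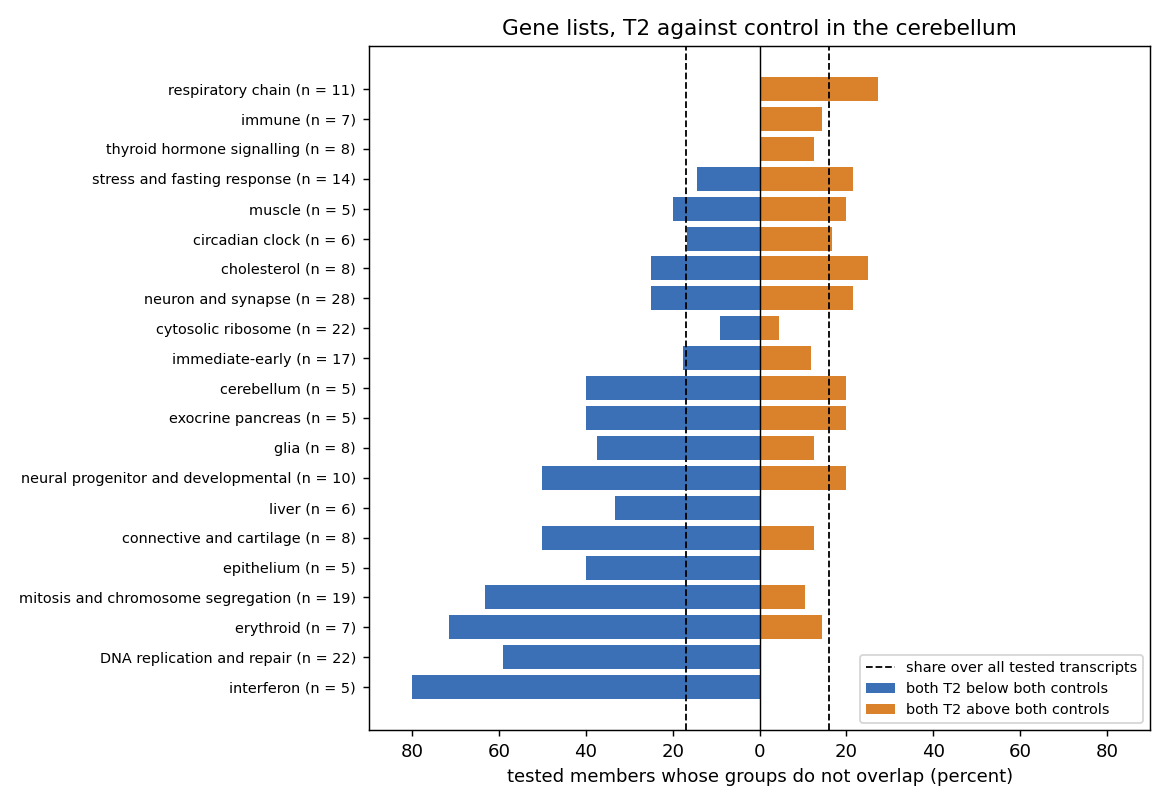
Percent of the tested members of each gene list in which both T2 libraries lay below both controls (blue, to the left) or above both controls (orange, to the right), with the number tested beside each name. Dashed lines mark the shares over all tested transcripts, 16.9% and 15.9%. Over tested transcripts with a symbol, which all list members have, the shares were 19.2% and 17.3%. The members in the cerebellum section of the study's clusters were chosen on these libraries.

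Several transcripts were present in one group and at or near 0 in the other. RP11-108O10.8 had 138 and 38 counts in the controls and 0 in both T2 libraries. With a floor of 3 counts in the shallower T2 library, it was at least 11.1-fold lower. ENSONIT00000000764 had 101 and 25 counts against 0 and 0 (at least 7.83-fold lower), MFSD11 20 and 49 (at least 6.45-fold), MTUS2 23 and 21 (at least 3.48-fold), and 1 transcript of MAP2 68 and 5 (at least 3.96-fold). These bounds use the mean of both controls. With the lower control alone they were 8.45-fold for RP11-108O10.8, 5.56-fold for ENSONIT00000000764, 2-fold for MFSD11, 2.3-fold for MTUS2 and 1.11-fold for MAP2. The 2 MAP2 transcripts summed to 16.6 and 12.3 CPM in the controls and 9.84 and 8.16 CPM with T2. PAXIP1, a DNA damage and chromatin protein, had 0 counts in both controls and 8 and 122 with T2, which is at least 12.1-fold higher on the mean of both T2 libraries and at least 4-fold on T2 1 alone.

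LUC7L2, a splicing factor, had 1 and 3 counts in the controls and 48 and 34 with T2. That was a ratio of 24.7 (95% exact interval 9.28 to 92.7, counting error only). In CPM the T2 libraries lay further apart, at 29.5 in T2 1 and 6.93 in T2 2. SIRT5, a mitochondrial deacylase, had 0 and 3 counts in the controls and 18 and 51 with T2, a ratio of 27.7 (9.09 to 138). TIMM50, of the mitochondrial import pore, had 31 and 23 counts in the controls and 0 and 1 with T2, and RTCB, the tRNA ligase, 36 and 34 against 1 and 0.

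Several of these transcripts were also at or near 0 in libraries of other groups. RP11-108O10.8 was at 0.20 CPM in the thalamus-pituitary library T2 2 and at 27.3 CPM in T2 1. RTCB was at 22.6 and 0 CPM in the 2 cerebellum libraries with T3. LUC7L2 was at 2.33 and 26.0 CPM in the thalamus-pituitary controls and at 0 and 10.6 CPM with T2 there. PAXIP1 was at 0 CPM in thalamus-pituitary T2 1 and at 12.0 CPM in T2 2. In these 4 transcripts, pools of 1 group thus ran from at or near 0 to levels well above it.

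**Figure D4:**
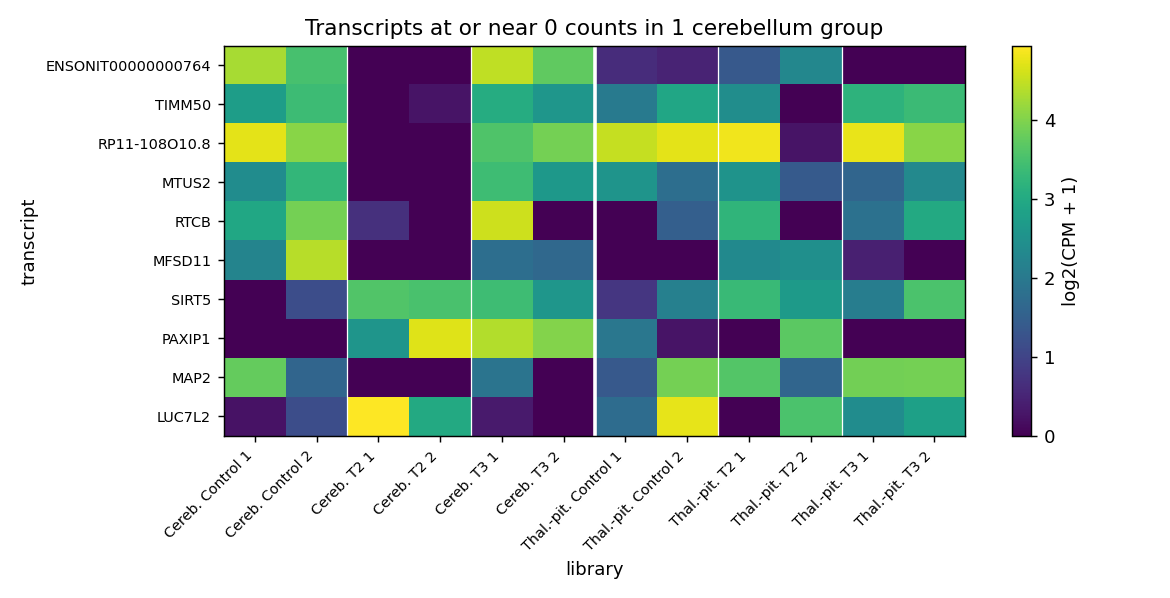
Level as log2(CPM + 1) (colour) of 10 transcripts (rows) that were at or near 0 counts in 1 cerebellum group, in the 12 brain libraries (columns). Dark cells outside the cerebellum T2 and control groups mark libraries in which some of them were also at or near 0, such as RP11-108O10.8 in thalamus-pituitary T2 2.

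T3 was given at the same dose and for the same time, so the 2 hormones, which differ by the outer ring iodine, were compared directly as 1 pair, with p-values adjusted over 15680 transcripts. Of these, 2 were called (0.0128%), both higher with T2, and 979 (6.24%) had an unadjusted p under 0.05. RPS12, a ribosomal protein, stood at 476 and 410 CPM with T2 and at 34.8 and 44.4 CPM with T3 (log2 difference 3.49, SE 0.18, adjusted p = 0.00896), and its controls stood at 24.3 and 420 CPM. ENSONIT00000004104 stood at 37.5 and 42.8 CPM with T2 and at 0.544 and 0.653 CPM with T3 (log2 difference 5.99, SE 0.32, adjusted p = 0.00896), and its controls stood at 28.4 and 18.5 CPM. With the replicate number as a block 0 transcripts were called.

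For the division, blood and CABIN1 transcripts no difference between T2 and T3 was called. TOP2A stood at 62.0 and 39.8 CPM with T3, and the difference, T2 minus T3, was -0.37 on the log2 scale (95% interval -0.95 to 0.21). For CKAP2 it was 0.14 (-0.42 to 0.70), for HBB -0.02 (-0.52 to 0.49), and for CABIN1 ENSONIT00000013891 0.23 (-0.10 to 0.55). These 4 intervals leave room for a difference of either sign. HBG2 stood at 1411 and 1548 CPM with T2 and at 1196 and 1095 CPM with T3, with a difference of 0.38 (0.15 to 0.61) and an adjusted p of 0.683. TNKS stood at 30.7 and 59.2 CPM with T3, with a difference of -1.10 (-1.91 to -0.29) and an adjusted p of 0.73. Each hormone's comparison with the control shares the same 2 control libraries. Against them, 8 of 18 tested mitosis transcripts were lower with T3 at an unadjusted p under 0.05 and 0 higher. Of all 15770 transcripts, 5.75% were lower and 5.05% higher. Lower with T3 were also 5 of 7 erythroid and 4 of 5 interferon transcripts. The study's cerebellum section was built on both hormones, so these counts are not independent evidence. Of members named outside it, 0 of 10 mitosis, 1 of 3 erythroid and 1 of 2 interferon transcripts were lower with T3. The split by section favours that contrast.

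The thalamus-pituitary has its own control libraries, but the sources used here do not say whether same-numbered pools of the regions came from the same fish. Of 61 transcripts that differed at least 8-fold between the 2 controls in both regions, 51 did so in the same direction. Whether the response to T2 differed between the regions was tested as an interaction over 8 libraries, and 0 of 17804 transcripts were called (0% called), with 659 (3.7%) at an unadjusted p under 0.05 and 3 called by DESeq2. TOP2A stood there at 25.8 and 16.7 CPM in the controls and 10.01 and 10.8 CPM with T2. HBB stood at 1890 and 1333 CPM in the controls and 800 and 856 CPM with T2. CABIN1, summed over its transcripts, stood at 250 and 241 CPM in the controls and 133 and 130 CPM with T2. In each of these genes both T2 libraries lay below both controls in this region too, but the share of all transcripts doing so there was not counted. Other members of the same lists overlapped. ALAS2 stood at 110 and 71.0 CPM in these controls and 57.6 and 78.7 CPM with T2, and HBG2 and MKI67 overlapped too. Of the 7 erythroid transcripts, 2 were lower and 0 higher at an unadjusted p under 0.05 there.

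The differences between the regions, cerebellum minus thalamus-pituitary, were -0.36 for TOP2A on the log2 scale (95% interval -1.06 to 0.33), -0.09 for HBB (-0.69 to 0.51) and -0.27 for HIST1H1T (-0.80 to 0.26). Of the 19 mitosis transcripts, 17 were tested in the thalamus-pituitary, where 5 were lower and 2 higher at an unadjusted p under 0.05 (2.96% and 3.2% of all) and the median was -0.17. The replication list had a median of 0.08 there, with 0 of 22 lower. Of the 28 transcripts plotted for both regions, 6 had an unadjusted p under 0.05 for the difference and none passed the adjustment. These were TNKS (-1.72), KIAA1324L (-2.01), NPC1 (2.44), ENSONIT00000012296 (1.49), ENSONIT00000023469 (0.50) and MYH10 (0.43). The 10 transcripts at or near 0 counts in 1 cerebellum group were not plotted. Among them, ENSONIT00000000764, MFSD11, MTUS2, RTCB, LUC7L2 and RP11-108O10.8 also had an unadjusted p under 0.05 for the difference. MFSD11 and LUC7L2 had opposite signs in the regions. ENSONIT00000000764 and RTCB had no separate fit in the thalamus-pituitary. There ENSONIT00000000764 stood at 0.54 and 0.41 CPM in the controls and at 1.59 and 3.86 CPM with T2, opposite to the cerebellum. RTCB stood there at 0 and 1.83 CPM in the controls and at 8.42 and 0 CPM with T2. The part of the cerebellar transcripts in thalamus-pituitary T2 1 was not tested.

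**Figure D5:**
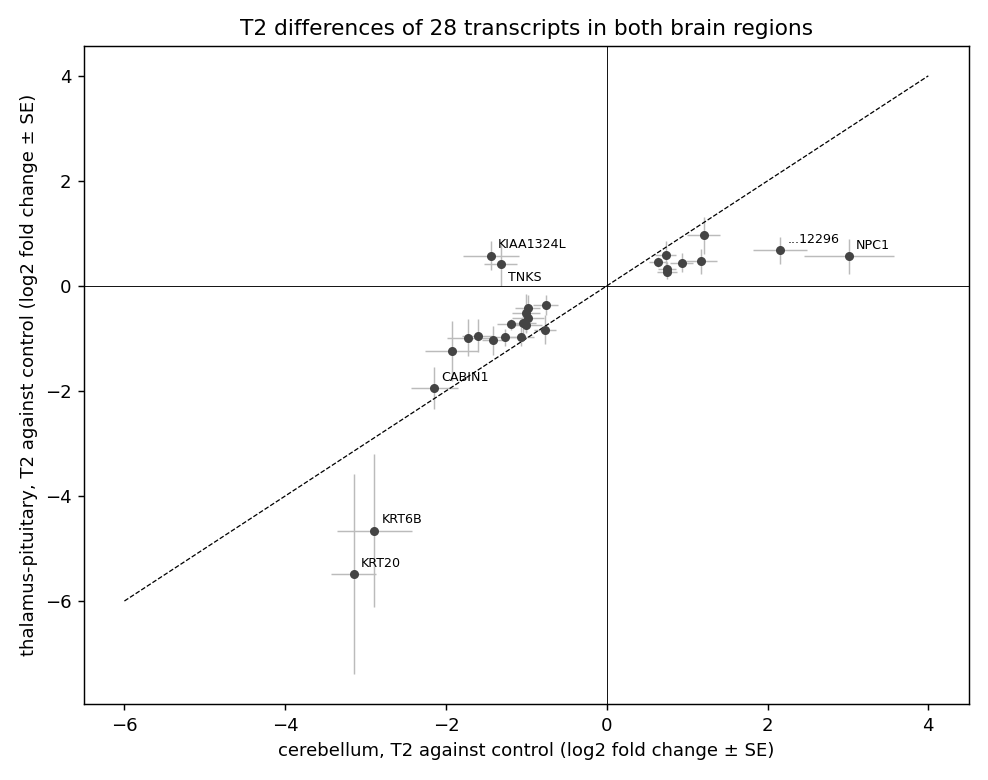
Log2 fold change of T2 against control ± SE in the cerebellum (x axis) and in the thalamus-pituitary (y axis) for 28 described transcripts. A dashed line marks equality. The 10 transcripts at or near 0 counts in 1 cerebellum group are left out, among them LUC7L2 and MFSD11, whose signs are opposite. Among the 28 shown, the sign is the same in both regions for 26, and TNKS and KIAA1324L have opposite signs. The share with the same sign over all transcripts was not counted. Of the 28, 26 are in the cerebellum section of the study's clusters.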

How the data were processed

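Per the sources used here, the authors checked reads with FastQC, removed adapters and contaminants, aligned reads with Bowtie 1.1.2 against Ensembl coding sequences (Orenil1.0), and used eXpress to estimate transcript abundance. They deposited 1 effective count per transcript and library, an estimated count for each of 26763 transcripts, without normalization between libraries. Reads shared by similar transcripts are divided by a model, so values of isoforms and gene copies are uncertain. The authors' own tables of fold changes and p-values were not used.

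Effective counts were rounded. The quasi-likelihood test of edgeR 4.0.16 (R 4.3.3, limma 3.58.1), with TMM scaling, took the transcripts that passed filterByExpr (minimum count 10, minimum total 15). The p-values were adjusted by Benjamini-Hochberg over all tested transcripts, with a threshold of 0.05. DESeq2 1.42.0 was an alternative. Fits were tested on simulated data. A bound sets the mean of the group with counts against 3 counts in the shallowest library of the group at 0.

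Members and gene lists were chosen with earlier results of these data known. Transcripts named were the 12 with the smallest p lying below, and the 12 above, both controls (with at most 4 lacking a symbol on each side), those with a symbol called by the exact test, LUC7L2, TNKS, TOP2A and CABIN1, and up to 4 of each list. Some named transcripts are not reported here. Positions and sequences were not used here.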

Additional observations from a re-analysis of the deposited data

How the results depend on the processing

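For T2 against control, 0 calls were also made with RLE size factors, library totals alone, unrounded or thinned counts, and all 6 cerebellum libraries in 1 fit. The exact test after the filter called 45, without it 36, and DESeq2 17. Without the filter the quasi-likelihood test called 156 transcripts. Minimum summed counts of 1 to 10 were then tried after seeing the data, and gave 6 calls at 2 and 0 at 3 and above, so the 156 rest on keeping transcripts with a single count. Leaving out 1 library gave 0 to 7 calls (5 without Control 2, 7 without T2 1). For T2 against T3, against 2 calls, no filter gave 106, the exact tests 123 and 98, DESeq2 47, and leaving out 1 library 1 to 20 (20 without T2 1). For the difference between regions DESeq2 called 3, and leaving out 1 library gave 0 to 8 (8 without cerebellum Control 2, 6 without thalamus-pituitary T2 2). The replicate block gave 0 calls for T2 against control, 0 for T2 against T3 and 0 for the regions. Deviations of same-numbered libraries correlated at -0.21 over 15271 transcripts, and a crossed pairing, added after seeing the data, gave 0 calls. The block brought the immediate-early members lower at an unadjusted p under 0.05 from 1 to 6. Of 104 described transcripts 12 changed sign under some setting, and the cause was not tested. RPS21 is among the 12, and the quasi-likelihood test without the filter called it (adjusted p = 1.93e-05). Over the fits that leave out 1 library, the log2 fold change ran from -0.0793 to 0.374 for SPI1, -9.011 to 8.608 for SIGLEC1 (fitted against groups at 0, so no sizes of change), -2.26 to 0.233 for ACTC1, -0.032 to 0.402 for KRT34, -0.31 to 0.62 for KRT18, -1.56 to 0.48 for CELA1, -1.703 to 0.093 for FETUB, -0.522 to 0.0041 for FGA, -0.21 to 0.71 for CRYM, -0.113 to 0.0498 for PER2 and -0.159 to 3.795 for RPS21. SIGLEC1 was at 0.11 with the replicate block, and thinning gave -0.0349 for RXRB and 0.0678 for PER2. Depth limits the transcripts near 0, where T2 1 resolves 0.615 CPM.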

Other observations

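SIGLEC1, a surface protein of macrophages, was present in 1 control and 1 T2 library and at or near 0 in the other, in the same numbered libraries of both brain regions. It stood at 38.9 CPM in Control 1 and 30.4 CPM in T2 2 of the cerebellum, with 0 counts in Control 2 and T2 1. In the thalamus-pituitary it stood at 35.3 CPM in Control 1 and 32.5 CPM in T2 2, and at 0.20 and 0 CPM in Control 2 and T2 1. RPS12 was low in Control 1 of both regions, at 24.3 and 50.2 CPM, against 420 and 400 CPM in Control 2.

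Over 18230 transcripts, 61 differed at least 8-fold between the 2 control libraries in both regions, and 51 of them in the same direction (83.6%). For T2 these numbers were 21 and 14 (66.7%), and for T3 36 and 16 (44.4%). The log2 differences between library 1 and library 2 in the 2 regions correlated across transcripts, which are not independent replicates, at 0.236 for the controls, 0.0814 for T2 and 0.0267 for T3. Whether same-numbered libraries of the regions share fish is not given in the sources used here.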
